A study of Mus musculus with 45 samples.

Results

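Induced pluripotent stem cell (iPSC) lines from mouse tail tip fibroblasts (TTF) were compared between passage 16 and passage 4, across every gene on the array. The comparison used 6 of the series' 45 arrays, 3 clones at each passage, all from the animal called mouse 2. They are 6 of the 33 arrays of 1 table, which also holds mouse 2 lines from B cells, T cells and granulocytes at both passages, granulocyte lines of mouse 1 at both passages and skeletal muscle precursor lines of mouse 1 at passage 6. The other 12 arrays hold the 4 mouse 2 origins at passage 10 on another platform. All lines came from a secondary system, in which the reprogramming factors are already carried by the somatic cells, and were grown in serum and LIF on irradiated embryonic fibroblast feeders, which were reduced by preplating before RNA was taken. Each array read the RNA of 1 clone as biotin-labelled cRNA. The clones share 1 animal, so that p-values cover no spread between animals. The spread used for each gene is that between clones of the same group, pooled over all 33 arrays, those of mouse 1 included. It is not the spread of the TTF clones alone. The number of arrays limits the precision.

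Newly made iPSC keep some marks of the cell they came from, in chromatin and in RNA, and these are known to fade as the lines are passaged. Pluripotency itself rests on a network around Oct4 (Pou5f1), Sox2 and Nanog, which is set up early and then kept. Pluripotent cells are also known for a high rate of glycolysis, for repressing germ cell genes by DNA methylation and for a short G1 phase.

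At passage 16 the TTF lines were higher than at passage 4 in genes of glycolysis and the hypoxia response, in cholesterol synthesis and in the DNA methylation machinery, and lower in p53 targets and in a set of germ cell genes. Of 11807 genes, 1439 were called at a Benjamini-Hochberg adjusted p under 0.05 in limma, or 12.2%. Among these 680 rose (5.76% of all genes) and 759 fell (6.43%). The change was at least 2-fold in 225 of those that rose and 296 of those that fell, and the median change of all genes was -0.01 on the log2 scale. The 3 values at passage 16 lay all above or all below those at passage 4 for 3155 genes (26.7%), and 1308 of the called genes (11.1% of all genes) were among these. All values below are log2 RMA values of 1 probe set per gene, and a change is passage 16 minus passage 4 with its standard error.

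The count of calls rested in part on single clones. It became 934 without clone 2 of passage 4, 849 without clone 2 of passage 16 and 557 in a fit of the 6 TTF arrays alone. Of the 1439 genes, 558 were called whichever of the 6 arrays was left out, and 0 changed sign in these fits. Clone 2 of passage 4 correlated with its 2 sister clones at r = 0.9768 and 0.9786, below the 0.9871 between those 2 and below the 0.9896 to 0.9927 among the passage 16 clones. The median within-group SD was 0.238 at passage 4 and 0.179 at passage 16, so that the passage 4 arrays were the more spread. Whether this comes from the lines or from the arrays was not tested.

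The lines carried pluripotency markers at both passages. The 5 measured markers, Pou5f1, Sox2, Nanog, Zfp42 and Dppa5a, lay between 10.76 and 13.15 in all 6 clones, and limma called 0 of them. Markers of endoderm (6 measured), trophoblast (4) and blood (5) had 0 called as well. Markers of fibroblasts had 4 of 9 called higher. Their mean per array ran from 5.54 to 5.75 at passage 4 and from 6.25 to 6.50 at passage 16. Of those not called, Lum lay at 3.12 to 3.69 and Fap at 3.39 to 3.93, near the floor of the table. Thy1 (change 0.28), Dcn (0.08) and Twist1 (-0.32) were not called either. Twist1 was well above the floor, at 7.82, 7.87 and 7.31 and then at 7.53, 7.17 and 7.33. A wider list of 38 measured fibroblast genes averaged 7.20, 7.37 and 7.14 in the passage 4 clones and 7.74, 7.75 and 7.84 in the passage 16 clones, with no overlap. With that mean as a covariate the count was 448 calls, of which 428 were among the 1439. Feeder cells left after preplating and fibroblast genes read from the iPSC themselves cannot be told apart here.

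Hypoxia and glycolysis genes rose together. Cells take up glucose through transporters, split it in glycolysis and export the product as lactate, and the factor HIF switches on many of these steps when oxygen is low. Of 35 measured genes of this list 21 rose and 0 fell (17 to 20 with any 1 TTF array left out, 14 in the 6-array fit, 16 with the fibroblast covariate), and the list's median change was 0.60. Besides the 4 genes described next, Slc2a1, Slc2a3, Hk2, Pfkl, Pfkp, Aldoa, Tpi1, Pgk1, Eno1b, Pkm and Ldha, which carry glucose into the cell and on to lactate, were called, as were Gys1, Egln1, Egln3, Ero1a, Bnip3l and Kdm3a. The promoters of 4 genes of the group are printed because they show the letters that HIF is known to bind. They are RefSeq sequences of GRCm38.p6, from 250 bases before to 50 after the start of transcription, with ACGTG in capitals on either strand (CACGT when it reads on the other strand, CACGTG where both overlap).
Bnip3: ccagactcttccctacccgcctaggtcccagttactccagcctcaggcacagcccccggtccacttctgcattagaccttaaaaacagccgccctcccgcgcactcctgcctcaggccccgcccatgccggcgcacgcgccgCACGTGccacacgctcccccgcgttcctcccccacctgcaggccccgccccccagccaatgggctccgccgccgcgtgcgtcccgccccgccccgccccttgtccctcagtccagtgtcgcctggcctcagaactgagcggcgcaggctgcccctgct
Slc16a3: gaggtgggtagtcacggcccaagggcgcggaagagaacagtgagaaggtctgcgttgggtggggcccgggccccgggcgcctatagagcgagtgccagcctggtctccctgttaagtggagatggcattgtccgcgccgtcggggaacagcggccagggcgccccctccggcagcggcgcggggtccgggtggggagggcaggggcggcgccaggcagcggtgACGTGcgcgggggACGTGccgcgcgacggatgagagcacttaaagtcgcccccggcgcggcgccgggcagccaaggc
Hk2: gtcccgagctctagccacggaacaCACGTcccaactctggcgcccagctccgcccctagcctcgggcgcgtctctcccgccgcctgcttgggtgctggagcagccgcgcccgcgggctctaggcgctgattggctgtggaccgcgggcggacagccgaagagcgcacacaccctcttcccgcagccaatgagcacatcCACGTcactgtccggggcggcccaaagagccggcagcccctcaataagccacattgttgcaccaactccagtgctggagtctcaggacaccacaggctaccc
Egln3: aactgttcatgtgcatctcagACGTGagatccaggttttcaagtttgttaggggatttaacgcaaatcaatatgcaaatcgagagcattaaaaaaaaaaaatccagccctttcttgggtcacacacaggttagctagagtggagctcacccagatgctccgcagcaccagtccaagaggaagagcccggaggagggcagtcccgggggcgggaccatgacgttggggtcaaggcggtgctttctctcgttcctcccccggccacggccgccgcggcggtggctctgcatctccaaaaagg

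These windows lie at chr7:138909457-138909756 (minus strand) for Bnip3, chr11:120948817-120949116 (plus strand) for Slc16a3, chr6:82774405-82774704 (minus strand) for Hk2 and chr12:54203825-54204124 (minus strand) for Egln3. Hk2 and Egln3 were picked for printing after their values were seen. The letters ACGTG stood in 12 of the 17 rising genes with a RefSeq promoter (70.6%), in 9 of 13 genes of the list that were not called (69.2%) and in 21.8% of all 27025 genes. Genes of the list that rose and those that were not called thus held the letters at close to the same share. Their median number of CpG dinucleotides was 24 and 20, against 8 over all genes, and ACGTG itself holds a CpG.

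Ndrg1, a hypoxia-induced gene of differentiation and stress, was at 6.98, 6.15 and 7.48 in the passage 4 clones and at 9.37, 9.46 and 9.45 at passage 16. Aldoc, the aldolase C gene of glycolysis, went from 6.93, 5.72 and 7.42 to 9.18, 9.21 and 8.89. In both genes the lowest passage 16 clone was over 1 log2 unit above the highest at passage 4, and the passage 4 clones were the more spread, with clone 2 lowest. The changes were 2.55 ± 0.22 for Ndrg1 (5.87-fold, limma adjusted p = 1.7e-08) and 2.41 ± 0.34 for Aldoc (5.30-fold, adjusted p = 2.7e-05). Of the probe sets of Aldoc, 1 of 2 had that sign. Bnip3, a mitophagy gene under HIF, was at 10.16, 9.29 and 9.88 and then at 11.87, 11.99 and 11.92, a change of 2.15 ± 0.16 (adjusted p = 8.7e-10). Slc16a3, the lactate exporter gene, was at 8.42, 8.13 and 8.34 and then at 10.35, 10.55 and 10.60. Its error was the smallest among the 15 largest rises, at 2.20 ± 0.13 (4.60-fold, adjusted p = 6.9e-12). Hk2, the hexokinase gene that starts glycolysis, rose by 1.75 ± 0.23, Ldha, which makes lactate, by 1.20 ± 0.13, and Egln3, an oxygen sensor and HIF target, by 1.69 ± 0.25. Not every HIF target moved. Vegfa, the angiogenic growth factor, was at 8.08, 7.26 and 8.29 and then at 7.80, 7.98 and 7.72, with a change of -0.04 ± 0.25 (adjusted p = 0.95), and Adm, adrenomedullin, had a change of 0.33 ± 0.25 (adjusted p = 0.47). Vegfa, Adm, Hk2, Ldha and Egln3 were chosen after their values were seen. Gbe1, the branching enzyme of glycogen synthesis and one of the 15 largest rises, went from 4.82, 4.59 and 5.14 to 7.01, 7.75 and 7.02 (2.41 ± 0.35, adjusted p = 3e-05).

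**Figure D1:**
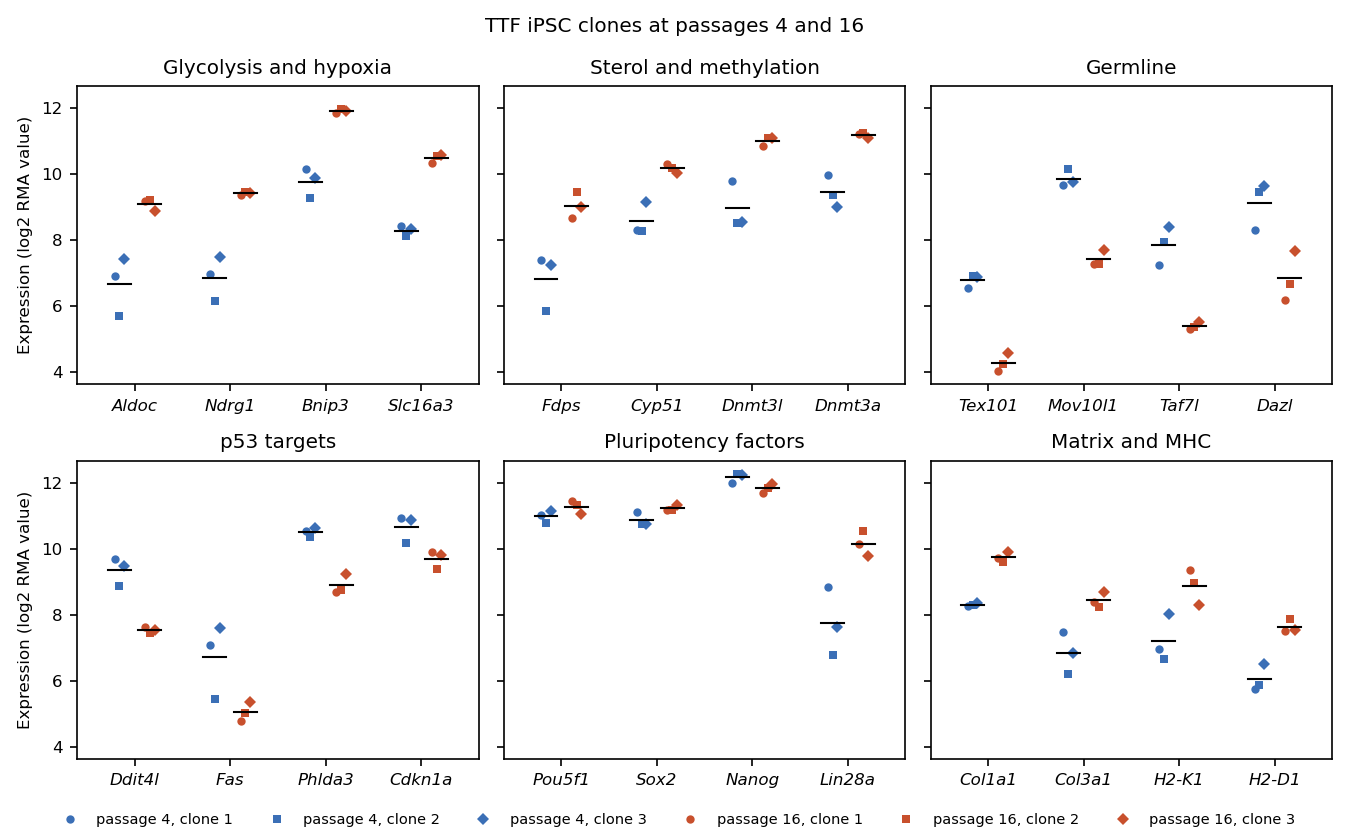
Log2 RMA values of single clones at passage 4 and passage 16 for 4 genes in each of 6 groups, 3 points per passage with a line at their mean. Ndrg1, Aldoc, Bnip3 and Slc16a3 stand clear of their passage 4 values in every passage 16 clone, Tex101, Mov10l1 and Taf7l lie below theirs, and the means of Pou5f1, Sox2 and Nanog differ by 0.30, 0.37 and -0.33.

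The plot of clone values sets these genes beside those of the groups that follow, on 1 scale of log2 value. The spread among passage 4 clones is visible as the wider columns on the left of each pair, most of all for Fas and Lin28a.

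Cholesterol synthesis genes rose as well. The pathway builds sterols and isoprenoids from acetyl-CoA, and its genes are switched on together when sterols run low. Of 17 measured genes 9 rose and 0 fell, with a median change of 0.94. The 9 were Fdps, Cyp51, Lss, Nsdhl, Stard4, Mvd, Idi1, Dhcr7 and Fdft1. The count fell to 5 without clone 2 of passage 4, to 6 without clone 2 of passage 16, to 5 with the fibroblast covariate and to 4 in the 6-array fit. Fdps, which makes farnesyl pyrophosphate, was at 7.39, 5.86 and 7.24 at passage 4 and at 8.68, 9.46 and 9.02 at passage 16. Cyp51, which demethylates lanosterol, was at 8.30, 8.27 and 9.15 and then at 10.32, 10.18 and 10.04. The passages did not overlap in either gene, and clone 2 of passage 4 was the lowest for both. Fdps rose by 2.23 ± 0.47 (4.68-fold, limma adjusted p = 0.0021) and Cyp51 by 1.61 ± 0.26 (adjusted p = 0.00017). The calls of Lss (1.32 ± 0.33) and Nsdhl (1.28 ± 0.34), later enzymes of the pathway, each ended without clone 2 of passage 4 (adjusted p = 0.12 and 0.11), that of Lss also without clone 1 of passage 16 (0.074) and that of Nsdhl without clone 2 or 3 of passage 16 (0.055 for each). In the 6-array fit they stood at an adjusted p of 0.18 and 0.072, and Nsdhl at 0.29 with the fibroblast covariate (0.99 ± 0.47).

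The genes that write DNA methylation rose. Dnmt3a and Dnmt3b place new methyl groups, Dnmt3l is their cofactor without activity of its own, and Uhrf1 brings Dnmt1 to newly copied DNA. Of 12 measured genes of this list 5 rose, these 5, and 0 fell (3 without clone 3 of passage 4 or clone 1 of passage 16, 2 with the fibroblast covariate, 3 in the 6-array fit), with a median change of 0.42. Dnmt3l was at 9.81, 8.53 and 8.56 at passage 4 and at 10.85, 11.09 and 11.10 at passage 16. Dnmt3a was at 9.99, 9.37 and 9.0 and then at 11.22, 11.25 and 11.11. Both were separated, with clone 1 the nearest to the passage 16 level. Dnmt3l rose by 2.05 ± 0.25 (4.13-fold, limma adjusted p = 5.4e-06) and Dnmt3a by 1.74 ± 0.35 (adjusted p = 0.0013). Uhrf1 went from 11.18, 10.94 and 10.96 to 11.73, 11.72 and 11.59 (0.65 ± 0.12, adjusted p = 0.00069). Dnmt3b had a change of 1.22 ± 0.33 (adjusted p = 0.015), and its call ended without clone 3 of passage 4 (0.12), without clone 1 of passage 16 (0.072) and in the 6-array fit (0.076). With the fibroblast covariate Dnmt3a was at 1.51 ± 0.49 (adjusted p = 0.089) and Dnmt3b at 1.19 ± 0.47 (0.18), both with a wider error.

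Germ cell genes, many of which are held silent in somatic and pluripotent cells by methylation of CpG-rich promoters, fell. Of 25 measured genes 7 fell and 1 rose, with a median change of -0.41 (5 to 10 fell and 1 to 2 rose with any 1 TTF array left out, 10 and 2 without clone 1 of passage 4, 4 and 2 with the fibroblast covariate). The 7 were Tex101, Taf7l, Mov10l1, Dazl, Tex19.1, Sycp3 and Stk31. Tex101, a surface protein of germ cells, was at 6.56, 6.93 and 6.89 at passage 4 and at 4.05, 4.24 and 4.59 at passage 16. Mov10l1, an RNA helicase of the piRNA pathway, was at 9.69, 10.16 and 9.77 and then at 7.29, 7.27 and 7.71. Taf7l, a TFIID subunit of spermatogenesis, was at 7.24, 7.96 and 8.39 and then at 5.32, 5.37 and 5.53. In these genes the highest passage 16 clone lay more than 1 log2 unit below the lowest at passage 4. The changes were -2.50 ± 0.26 for Tex101 (limma adjusted p = 6.2e-07), -2.45 ± 0.28 for Mov10l1 (adjusted p = 1.8e-06) and -2.46 ± 0.29 for Taf7l (adjusted p = 2.8e-06), each between 5.46-fold and 5.66-fold lower. Dazl, an RNA-binding protein of germ cells, went from 8.30, 9.46 and 9.66 to 6.20, 6.68 and 7.68. Its change was -2.29 ± 0.57 (adjusted p = 0.0079), and its call ended without clone 1 of passage 16 (-1.96 ± 0.63, 0.052) and with the fibroblast covariate (-2.19 ± 0.81, 0.14). The promoters of these 4 genes are printed with every CpG in capitals, from RefSeq on GRCm38.p6 in the same window as above.
Tex101: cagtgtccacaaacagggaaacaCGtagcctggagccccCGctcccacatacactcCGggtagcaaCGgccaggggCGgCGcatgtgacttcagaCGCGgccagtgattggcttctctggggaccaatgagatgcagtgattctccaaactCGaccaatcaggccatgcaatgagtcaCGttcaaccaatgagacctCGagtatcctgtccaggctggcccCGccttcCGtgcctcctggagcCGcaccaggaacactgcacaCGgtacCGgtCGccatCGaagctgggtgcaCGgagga
Mov10l1: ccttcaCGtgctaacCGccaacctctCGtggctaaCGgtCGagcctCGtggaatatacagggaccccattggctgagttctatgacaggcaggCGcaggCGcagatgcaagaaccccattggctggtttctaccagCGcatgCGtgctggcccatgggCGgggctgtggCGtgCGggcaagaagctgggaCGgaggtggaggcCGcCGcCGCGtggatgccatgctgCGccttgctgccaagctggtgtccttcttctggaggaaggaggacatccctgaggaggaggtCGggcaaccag
Taf7l: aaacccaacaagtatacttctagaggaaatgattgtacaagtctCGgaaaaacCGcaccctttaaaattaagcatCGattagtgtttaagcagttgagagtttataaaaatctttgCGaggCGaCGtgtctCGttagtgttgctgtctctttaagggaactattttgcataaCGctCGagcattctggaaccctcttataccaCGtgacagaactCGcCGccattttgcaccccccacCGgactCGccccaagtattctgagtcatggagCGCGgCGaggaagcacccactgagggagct
Dazl: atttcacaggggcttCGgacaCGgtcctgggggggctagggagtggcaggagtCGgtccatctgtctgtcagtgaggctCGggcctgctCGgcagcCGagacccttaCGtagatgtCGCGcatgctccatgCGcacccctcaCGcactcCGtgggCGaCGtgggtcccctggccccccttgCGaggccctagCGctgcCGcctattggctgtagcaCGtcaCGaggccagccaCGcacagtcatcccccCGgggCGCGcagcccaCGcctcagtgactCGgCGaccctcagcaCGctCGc

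They lie at chr7:24672001-24672300 (minus strand) for Tex101, chr15:88982744-88983043 (plus strand) for Mov10l1, chrX:134476441-134476740 (minus strand) for Taf7l and chr17:50293571-50293870 (minus strand) for Dazl. They hold 19, 20, 17 and 28 CpG dinucleotides in 300 bases. The median over the 7 germ cell genes that fell was 19. It was 20.5 over the 12 germ cell genes that did not fall and have a promoter in the table, 24 over the hypoxia and glycolysis genes that rose and 8 over all genes with a promoter. The arrays do not read methylation. Rhox5, a homeobox gene of the X chromosome counted in the same list, moved the other way. It was at 9.49, 5.70 and 8.09 at passage 4 and at 10.44, 10.87 and 10.38 at passage 16, and rose by 2.80 ± 0.48 (6.98-fold, limma adjusted p = 0.00025; 0.09 in the 6-array fit). Sfmbt2, a polycomb-related gene imprinted in extraembryonic tissue, had the largest rise of the genes that did not overlap, from 7.21, 4.93 and 5.11 to 8.60, 8.87 and 8.59 (2.94 ± 0.35, 7.66-fold, adjusted p = 3.1e-06).

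Transcripts of the 2-cell-like state, a rare state of cultured pluripotent cells that resembles the early embryo, had 3 of 8 measured genes lower and 0 higher, with a median change of -0.83. The count was 1 to 4 with any 1 TTF array left out, 0 in the 6-array fit and 1 without clone 2 of passage 4, without clone 1 or clone 2 of passage 16 and with the fibroblast covariate. Usp17la, a deubiquitinase of that state, was at 9.80, 11.51 and 9.86 and then at 7.89, 7.94 and 9.42, a change of -1.97 ± 0.43 (limma adjusted p = 0.0029; 0.084 in the 6-array fit). Usp17la has near-identical copies on chromosome 7, and probes may read several of them.

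Targets of p53 fell. The factor p53 answers DNA damage and stress by switching on genes that stop the cell cycle or start cell death, and it is known to limit reprogramming. Of 22 measured targets 13 fell and 0 rose (10 to 12 with any 1 TTF array left out), with a median change of -0.72. The count was 7 in the 6-array fit and 5 with the fibroblast covariate. Phlda3, a repressor of Akt, was at 10.55, 10.38 and 10.65 at passage 4 and at 8.70, 8.77 and 9.25 at passage 16. Ddit4l, an inhibitor of mTOR signalling, was at 9.70, 8.89 and 9.50 and then at 7.64, 7.45 and 7.56. Every late clone lay below every early one in both genes. The changes were -1.62 ± 0.25 for Phlda3 (limma adjusted p = 5.9e-05) and -1.81 ± 0.34 for Ddit4l (adjusted p = 0.00067). Fas, a death receptor, went from 7.08, 5.44 and 7.62 to 4.79, 5.02 and 5.37 (-1.66 ± 0.34, adjusted p = 0.0015). Btg2, an antiproliferative gene that is also an immediate early gene, went from 9.79, 9.15 and 9.93 to 8.11, 7.76 and 8.01 (-1.66 ± 0.26, adjusted p = 7.8e-05). Cdkn1a, the p21 cell cycle inhibitor, went from 10.93, 10.19 and 10.88 to 9.90, 9.40 and 9.82 (-0.96 ± 0.21, adjusted p = 0.0033). The Cdkn1a clones did not overlap either, and the smallest distance was that of clone 2 of passage 4. The call of Fas ended in the 6-array fit (adjusted p = 0.099), as did that of Cdkn1a (0.062), which stood at -0.82 ± 0.30 with the fibroblast covariate (0.14). Bbc3, which encodes the death inducer Puma and was picked after its values were seen, was at 7.84, 6.75 and 7.48 and then at 7.94, 7.43 and 7.50 and was not called (0.27 ± 0.26, adjusted p = 0.6).

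Cell cycle genes had 8 of 42 measured members higher and 0 lower, with a median change of 0.16 (5 to 8 with any 1 TTF array left out, 5 without clone 3 of passage 4 or without clone 2 or clone 3 of passage 16, and 1 with the fibroblast covariate). All 3 D-type cyclins, which drive G1 progression, were among them. Ccnd1 was at 9.25, 7.90 and 7.98 and then at 10.15, 10 and 9.98, and Ccnd3 at 8.58, 7.77 and 8.56 and then at 9.43, 9.62 and 9.41. Clone 1 had the highest passage 4 level of Ccnd1, still below the 3 late clones. The rises were 1.67 ± 0.28 for Ccnd1 (limma adjusted p = 0.00023; 1.31 ± 0.39 at 0.06 with the fibroblast covariate) and 1.18 ± 0.22 for Ccnd3 (adjusted p = 0.00048). Ccnd2 had 1.35 ± 0.35 (adjusted p = 0.011), a call that ended without clone 3 of passage 4 (0.078), without clone 3 of passage 16 (0.056), with the mean of its probe sets (0.082) and with the fibroblast covariate (0.77). Mki67, a proliferation marker picked after its values were seen, was at 11.87, 11.63 and 11.79 and then at 12.17, 11.85 and 11.76 and was not called (adjusted p = 0.61). The inhibitor gene Cdkn2a of the Ink4 locus, a barrier to reprogramming, was at 5.35, 5.69 and 5.02 and then at 6.0, 5.71 and 6.13, and was not called either (0.59 ± 0.23, adjusted p = 0.099). Its neighbour Cdkn2b, another inhibitor of the D-type cyclin kinases, was at 7.29, 7.69 and 6.88 and then at 5.87, 6.15 and 6.82. The late clones lay below the early ones, clone 3 of each passage by the least, and the change of -1.01 ± 0.31 was called (adjusted p = 0.031). The call was not steady. It ended in the 6-array fit (0.091), with array weights (0.065), with quantile normalization (0.074) or cyclic loess (0.057), and without clone 1 (0.061) or clone 2 (0.17) of passage 4 or clone 1 (0.16) or clone 2 (0.11) of passage 16, at -0.80 to -1.03.

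The core of the pluripotency network had small changes that were not called, while some genes at its edge moved. Pou5f1 was at 11.03, 10.79 and 11.16 and then at 11.45, 11.35 and 11.07, with overlap (0.30 ± 0.13, limma adjusted p = 0.14). Sox2 had a change of 0.37 ± 0.13 (adjusted p = 0.059), Nanog of -0.33 ± 0.26 (0.49), Klf4 of -0.13 ± 0.12 (0.6) and Myc of 0.43 ± 0.42 (0.61). The passages did not overlap for Sox2, with all late clones higher, or for Nanog, with all late clones lower. Such separation held for 26.7% of all genes. Sox2 went from 11.11, 10.76 and 10.77 to 11.20, 11.19 and 11.35, and Nanog from 12.01, 12.27 and 12.24 to 11.69, 11.86 and 11.97. Of 33 measured genes of the wider list 8 rose and 2 fell, with a median change of 0.08. These counts were the least steady of the lists described at length, with 3 to 10 higher and 0 to 3 lower with any 1 TTF array left out (4 and 0 without clone 2 of passage 4, 3 and 2 without clone 3, 3 and 1 without clone 2 of passage 16, 4 and 3 without clone 3), and 2 higher and 1 lower with the fibroblast covariate.

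Lin28a, an RNA-binding protein that blocks let-7 maturation, had the largest rise of the pluripotency list. It was at 8.86, 6.80 and 7.64 at passage 4 and at 10.14, 10.56 and 9.78 at passage 16. The passage 4 clones spanned over 2 log2 units and the late ones under 1, and the passages did not overlap. The rise was 2.39 ± 0.47 (5.25-fold, limma adjusted p = 0.0011), with the same sign in both probe sets. Lefty1, a Nodal antagonist counted with the primitive streak and mesoderm genes, went from 9.14, 6.15 and 6.84 to 9.30, 10.28 and 9.89 (2.45 ± 0.50, adjusted p = 0.0015; 0.085 in the 6-array fit). Clone 1 of passage 4 was already near the late level of Lefty1. Tbx3, a factor of the naive network, had a change of -1.13 ± 0.27 with overlapping clones (adjusted p = 0.0057), and its call ended without clone 2 of passage 4 (0.059) and in the 6-array fit (0.12).

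Imprinted genes, which are read from 1 parental copy, moved one by one. Of 22 measured outside the Dlk1-Dio3 cluster 5 rose and 1 fell (3 to 6 and 0 to 2 with any 1 TTF array left out, 3 and 1 without clone 3 of passage 4, 1 and 1 with the fibroblast covariate, 2 and 1 in the 6-array fit). Snrpn, on chromosome 7, was at 9.92, 9.81 and 9.54 and then at 10.78, 10.92 and 11.05, a tight rise of 1.16 ± 0.16 (limma adjusted p = 2.3e-05). Peg3, a zinc finger gene, was at 7.54, 4.76 and 6.07 and then at 7.86, 8.56 and 8.36, a rise of 2.13 ± 0.47 (adjusted p = 0.003; 0.087 in the 6-array fit, and 2.28 ± 0.67 at 0.054 with the fibroblast covariate) in which the late clones gathered above a wide early range. In the Dlk1-Dio3 cluster, whose silencing is known to mark iPSC of lower potential, Meg3 was at 9.72, 10.15 and 9.99 and then at 9.20, 7.70 and 9.65, and Rian at 8.46, 7.83 and 9.22 and then at 7.05, 7.29 and 8.12. Neither was called (Meg3 -1.10 ± 0.49, adjusted p = 0.16; Rian -1.02 ± 0.65, adjusted p = 0.38), and the value of clone 2 of passage 16 stood apart for Meg3.

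More fibroblast genes rose than fell. Of 38 measured genes of the list 16 rose and 4 fell, with a median change of 0.67 (12 to 15 and 3 to 4 with any 1 TTF array left out). A change in the amount of an RNA per cell and a change in the share of cells that make it cannot be told apart in such bulk samples. Col1a1, the main chain of type I collagen, was at 8.28, 8.31 and 8.35 and then at 9.73, 9.61 and 9.90. Col3a1, of type III collagen, was at 7.48, 6.21 and 6.86 and then at 8.41, 8.23 and 8.70. Postn, the matrix protein periostin, was at 4.81, 4.79 and 4.78 and then at 6.41, 6.89 and 7.14. The late clones were all higher for these 3, by 1.43 ± 0.27 for Col1a1 (limma adjusted p = 0.00081), by 1.60 ± 0.30 for Col3a1 (adjusted p = 0.00068) and by 2.02 ± 0.29 for Postn (adjusted p = 2.6e-05). Col6a3, a chain of collagen VI, had the largest rise of the list, from 3.93, 4.20 and 4.06 to 5.99, 6.59 and 6.79 (2.40 ± 0.28, adjusted p = 3.1e-06). The 4 that fell were Mgp, Ccn1, Mmp2 and Ccn2. Mgp, an inhibitor of calcification, went from 7.67, 8.49 and 7.92 to 5.76, 6.27 and 6.50 (-1.85 ± 0.33, adjusted p = 0.00045). With the list's own mean as a covariate 3 rose and 3 fell, and Col1a1 was at 0.39 with an adjusted p of 0.53 and Col3a1 at 0.98 with 0.19. The genes of the list enter that mean, so that a drop in their count was built into this fit. It is no test of these genes.

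Genes of MHC class I, which present peptides to T cells and are low in pluripotent cells, had 3 of 10 measured genes higher and 1 lower, also with any 1 TTF array left out. H2-D1, a classical class I heavy chain, was at 5.75, 5.88 and 6.52 and then at 7.51, 7.88 and 7.56 (1.60 ± 0.21, limma adjusted p = 8.2e-06; 0.25 with the mean of its 5 probe sets). H2-K1 was at 6.96, 6.68 and 8.02 and then at 9.38, 8.98 and 8.31 (1.67 ± 0.40, adjusted p = 0.006; 0.052 in the 6-array fit). The class I heavy chains are close in sequence, so that probes may read more than 1 of them. Psmb10, of the immunoproteasome that trims peptides for class I, rose by 1.26 ± 0.21 (adjusted p = 0.00016), and Psmb9, of the same particle, was the 1 that fell, by 1.18 ± 0.19 (adjusted p = 0.00016; 0.062 with the fibroblast covariate).

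Of the remaining lists, epithelial junction and keratin genes had 7 of 24 lower and 0 higher (1 to 6 with any 1 TTF array left out, 4 without clone 1 of passage 4, 1 without clone 3, 4 without clone 2 of passage 16, 3 without clone 3, and 2 with the fibroblast covariate or in the 6-array fit), early neural genes 6 of 24 higher and 0 lower (3 without clone 3 of passage 4 and with the covariate), and polycomb genes 4 of 21 higher and 1 lower. Genes of FGF and ERK signalling had 4 of 14 higher and 0 lower (1 without clone 2 of passage 4 and 0 with the covariate). Interferon response genes had 4 of 23 higher and 1 lower, LIF and STAT3 genes 2 of 13 higher and 0 lower, Notch genes 2 of 17 higher and 3 lower, and immediate early genes 1 of 19 higher and 3 lower. Ribosomal protein genes had 1 of 42 called, respiratory chain genes 4 of 53, Hox genes 2 of 28, endoderm genes 1 of 28, primitive streak and mesoderm genes 2 of 29 and blood genes 1 of 20. The blood gene was Lyz2, lysozyme of myeloid cells, at 4.13, 4.11 and 3.86 and then at 6.18, 6.03 and 5.87 (1.99 ± 0.34, limma adjusted p = 0.00024; 0.056 with the fibroblast covariate). The share called among these 6 lists ran at or below the 12.2% of all genes, and the calls of respiratory chain genes numbered 0 to 3 with any 1 TTF array left out. In all, 161 of the 674 genes on the 32 lists were called (23.9%), 103 higher and 58 lower.

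**Figure D2:**
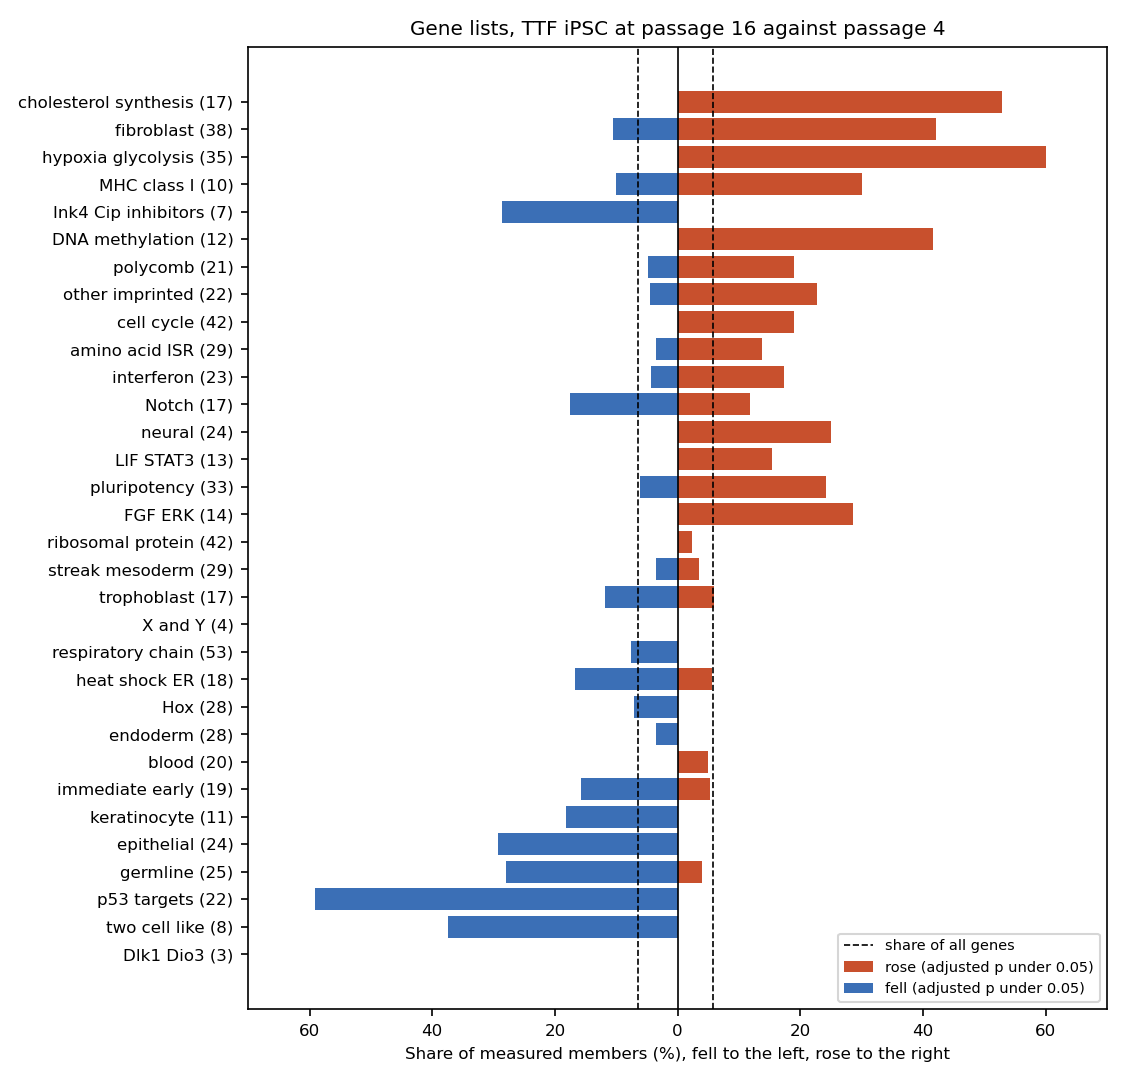
Share of the measured members of each of 32 gene lists that rose (to the right) or fell (to the left) from passage 4 to passage 16 in TTF lines, in percent, ordered by the median change of the list. Dashed lines mark the shares of all genes, 5.76% higher and 6.43% lower.

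In the plot of lists, 60.0% of hypoxia and glycolysis genes and 52.9% of cholesterol synthesis genes rose, and 59.1% of p53 targets fell. Smaller shares of fibroblast genes (42.1%) and of the DNA methylation machinery (41.7%) rose. The lists of endoderm, primitive streak and mesoderm, and blood genes stay near or within the dashed lines, while those of epithelial and early neural genes reach well beyond them.

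Among single genes outside these lists, the largest fall without overlap was that of Tktl1, a transketolase-like gene on the X chromosome. It was at 6.37, 8.54 and 6.89 at passage 4 and at 4.17, 3.63 and 5.04 at passage 16 (-2.99 ± 0.39, 7.93-fold lower, limma adjusted p = 8.9e-06). The carboxypeptidase gene Cpz went from 6.68, 6.94 and 6.45 to 4.48, 4.27 and 4.32, one of the tightest falls (-2.34 ± 0.17, adjusted p = 4.7e-10). Bhmt, which remethylates homocysteine with betaine, went from 5.91, 7.06 and 7.43 to 4.43, 4.13 and 4.12 (-2.57 ± 0.45, adjusted p = 0.0003). The drug efflux pump gene Abcb1b went from 10.01, 9.91 and 10.35 to 7.82, 7.38 and 7.83 (-2.41 ± 0.36, adjusted p = 4.7e-05). Other falls among the 15 largest were those of the cartilage matrix gene Matn1 (-2.60 ± 0.45), Dcxr, an enzyme of xylulose metabolism (-2.51 ± 0.35), the epidermal caspase gene Casp14 (-2.42 ± 0.34), Phlda1 (-2.32 ± 0.30), the annexin gene Anxa8 (-2.31 ± 0.39), the costimulatory ligand gene Cd80 (-2.28 ± 0.35) and 1300017J02Rik (-2.72 ± 0.29). These ran from 4.86-fold to 6.60-fold lower. Among the 15 largest rises were the G protein subunit gene Gng3 (2.47 ± 0.41), the microtubule protein gene Map1b (2.25 ± 0.36), Enpp3 (2.57 ± 0.45), the cadherin gene Cdh11 (2.25 ± 0.38) and the ETS factor gene Etv1 (2.41 ± 0.62). The call of Enpp3 ended in the 6-array fit (adjusted p = 0.054), that of Cdh11 with the fibroblast covariate (0.1) and that of Etv1 without clone 2 (0.062) or clone 3 (0.053) of passage 4 and with that covariate (0.25).

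The change in TTF lines was next set against that of the other origins of mouse 2. Against the mean change of B cell, T cell and granulocyte lines, more glycolysis and cholesterol genes and Lin28a moved up in TTF lines, and 6 p53 targets and 5 germ cell genes moved down. The difference between the TTF change and the mean change of the other 3 origins was called for 1528 genes (12.9%), 653 higher (5.53%) and 875 lower (7.41%). It became 693 without clone 2 of TTF passage 4, 675 without clone 2 of passage 16 and 935 with the fibroblast covariate. Clone 3 of the passage 16 granulocyte lines of mouse 2 stood apart from its group, with a mean r of 0.9222 to the other 2, and without it the count was 2077. Since the TTF arrays enter both this difference and the change itself, their values are given side by side and not as separate evidence.

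Fdps rose by 2.23 in TTF lines and had changes of -1.17 in B cell, -0.89 in T cell and -1.15 in granulocyte lines, a difference of 3.30 ± 0.54 (limma adjusted p = 0.00034). Lin28a, up by 2.39 in TTF lines, was at -0.31, -0.40 and -1.34 in these 3 (3.08 ± 0.54, adjusted p = 0.00074). Aldoc, up by 2.41, was at -0.45, -0.47 and -0.32 (2.82 ± 0.39, adjusted p = 7.5e-05). All 3 genes had a negative value in each of the other origins, but only that of Lin28a in granulocyte lines was called (limma adjusted p = 0.03). Snurf, the upstream reading frame of the imprinted Snrpn transcript, had the largest called difference, 4.10 ± 0.64 (adjusted p = 0.00024). Its TTF clones went from 5.01, 4.49 and 5.51 to 6.44, 7.16 and 6.34 (1.64 ± 0.56, adjusted p = 0.052), against -2.92, -1.52 and -2.92 in the other lines. Lox, which crosslinks collagen, had 1.12 ± 0.44 in TTF lines against -1.32, -2.02 and -2.28 (2.99 ± 0.51, adjusted p = 0.00051). Neither Snurf nor Lox was called for the change in TTF lines alone. The genes with the largest differences downward were Matn1 (-3.21 ± 0.51), Usp17la (-2.81 ± 0.50), 1300017J02Rik (-2.78 ± 0.33), Casp14 (-2.76 ± 0.40) and Tktl1 (-2.72 ± 0.45). Matn1 had a change of 1.66 in granulocyte lines and Usp17la of 3.46 in T cell lines.

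**Figure D3:**
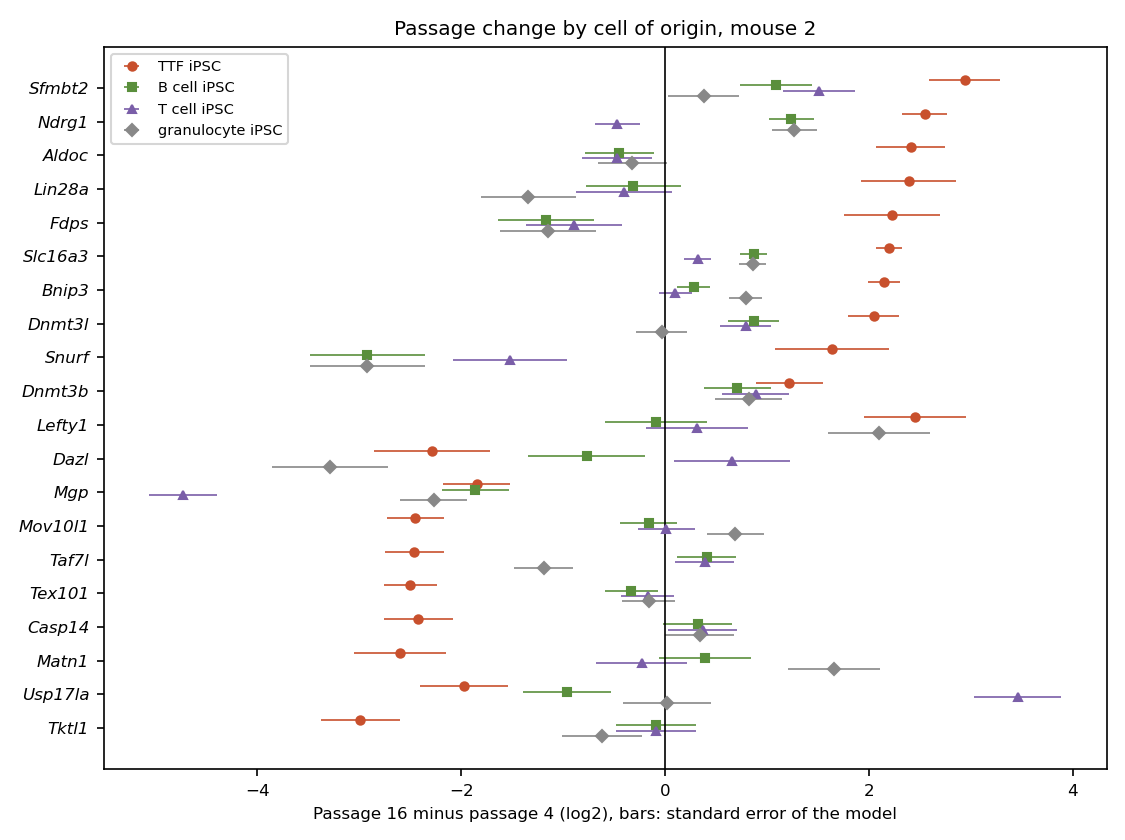
Passage 16 minus passage 4 in log2 units for 20 genes in mouse 2 lines from TTF, B cells, T cells and granulocytes, points with their standard errors. Aldoc, Fdps and Lin28a are above 2 in TTF lines and below 0 in the other 3 origins, while Mgp is below 0 in all 4.

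The plot by origin also shows where TTF lines moved with the others. Ndrg1, up by 2.55 in TTF lines, also rose in B cell (1.24, limma adjusted p = 0.0012) and granulocyte lines (1.27, 0.00016). It was at -0.47 in T cell lines (0.15). Slc16a3, up by 2.20, rose in B cell (0.87, 0.00018) and granulocyte lines (0.86, 3.3e-05) and was at 0.32 in T cell lines. Dnmt3l, up by 2.05, rose in B cell (0.87, 0.032) and T cell lines (0.79, 0.03) and was at -0.03 in granulocyte lines. The differences of these genes from the other origins were called. Mgp fell by 1.85 in TTF lines and was at -1.86 in B cell, -4.73 in T cell and -2.27 in granulocyte lines. Dazl, at -2.29 in TTF lines, was at -3.29 in granulocyte lines, and its difference from the mean of the other origins was not called (-1.15 ± 0.65, adjusted p = 0.24). Dnmt3b was positive in all 4, at 0.71, 0.89 and 0.82 outside TTF lines, with a difference of 0.41 ± 0.38 (adjusted p = 0.48).

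By list, the difference was higher for 18 hypoxia and glycolysis genes of 35 and lower for 0, and higher for 10 cholesterol genes of 17 and lower for 0. It was lower for 6 p53 targets of 22 and 5 germ cell genes of 25, with 0 higher in either. Some p53 targets also fell in T cell lines, where Btg2 changed by -1.76 (limma adjusted p = 3.8e-05), Ddit4l by -1.56 (0.0019), Fas by -1.43 (0.0037) and Cdkn1a by -1.44 (4.2e-05), close to or beyond their TTF changes of -1.66, -1.81, -1.66 and -0.96. None of these 4 was called in B cell or granulocyte lines, whose changes ran from -0.45 to 0.30. The difference was higher for 3 genes of the DNA methylation machinery of 12, 9 fibroblast genes of 38 and 8 cell cycle genes of 42, and lower for 0 of each. The mean of the fibroblast list also rose in B cell lines, from 7.26, 7.19 and 7.37 to 7.82, 7.92 and 8.08. Granulocyte lines went from 7.40, 7.33 and 7.46 to 7.75, 7.80 and 7.65. T cell lines fell from 7.86, 7.95 and 7.75 to 7.40, 7.14 and 7.46. Col6a3 changed by 2.48, Col1a1 by 1.40 and Col3a1 by 1.01 in B cell lines (limma adjusted p = 6.1e-06, 0.0026 and 0.037). In T cell lines these genes were at 0.42, -1.05 and -1.71. The median difference of all genes was -0.12, and it was -0.03 with quantile normalization and -0.01 with cyclic loess. Scaling alone thus moved the median difference by about 0.1. This median does not show how far scaling moved single genes.

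At passage 4 the TTF lines stood below the other origins in glycolysis and cholesterol genes and above B cell and granulocyte lines in p53 targets, and at passage 16 limma found no gene apart. TTF lines differed from the mean of the other 3 origins of mouse 2 in 2306 genes at passage 4 (19.5%), 1379 higher (11.7%) and 927 lower (7.85%), or in 1108 without clone 2 of TTF passage 4. At passage 16 limma called 0 of 11807 genes, with 818 at an unadjusted p under 0.05, and 4 with array weights. Taken against single origins at passage 16, TTF lines differed in 0 genes from B cell lines (323 unadjusted), in 97 from T cell lines and in 0 from granulocyte lines (2518 unadjusted). These gaps share their TTF arrays with the passage change.

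At passage 4, 20 of 35 hypoxia and glycolysis genes and 12 of 17 cholesterol genes were lower in TTF lines than in the mean of the other origins, and 0 higher in either list. The hypoxia and glycolysis genes were lower against each origin, in 19 genes against B cell, 19 against T cell and 17 against granulocyte lines (7.30%, 6.91% and 9.03% of all genes were lower in these 3 comparisons), while 1, 0 and 4 of them were higher. Targets of p53 were higher in 11 of 22 against B cell lines and 13 against granulocyte lines, and in 0 against T cell lines (11.6%, 15.6% and 5.84% of all genes), where 1 was lower. Fibroblast genes were lower for 11 of 38 and higher for 2 against the mean of the other origins (7.85% and 11.7% of all genes). Against T cell lines 13 were lower and 0 higher, against granulocyte lines 9 and 6, and against B cell lines 3 and 5. The shares of all genes in these 3 comparisons are those given above. Aldoc stood at -2.54 ± 0.28 (adjusted p = 6.1e-07) at passage 4 and at 0.28 ± 0.28 (0.73) at passage 16. Lin28a stood at -2.38 ± 0.38 (8.4e-05) and then at 0.69 ± 0.38 (0.68). Meg3 stood at 2.70 ± 0.40 (3.1e-05) and then at 1.25 ± 0.40 (0.66). That mean joins unlike gaps of Meg3. Against B cell lines it went from 3.08 to 0.83 and against granulocyte lines from 3.07 to 0.55. Against T cell lines it was at 1.94 and then at 2.38, called at both passages (limma adjusted p = 0.0091 and 0.015). Dnmt3l stood at -1.60 ± 0.21 (5.3e-06) and then at -0.10 ± 0.21 (0.87). The late values of these genes other than Meg3 lie within 2 standard errors of 0.

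At passage 10, read on other arrays, single-origin calls were nearly all against granulocyte lines. TTF lines differed from the mean of the other origins in 1705 of 12394 genes (13.8%), 657 higher (5.3%) and 1048 lower (8.46%), and in 554 without TTF clone 1, 300 without clone 2 and 1289 without clone 3. Against single origins 4513 genes were called between TTF and granulocyte lines, 6 between TTF and B cell lines and 11 between TTF and T cell lines (977 and 2033 unadjusted). Of the 2251 genes called at passage 4 and measured here, 387 were called again at passage 10 (17.2%), 187 with the same sign and 200 with the opposite one. These are 24.3% of the 1594 passage 10 calls that the other table measures.

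Hypoxia and glycolysis genes were lower in 20 of 33 against that mean at passage 10 and higher in 0 (9 without TTF clone 1, 3 without clone 2), with 30 lower and 1 higher against granulocyte lines (20.8% of all genes were lower) and 0 in either direction against B cell or T cell lines (against T cell lines 0.0161% of all genes were lower), where the list medians were -0.15 and -0.21. Aldoc was at -0.99 ± 0.20 (adjusted p = 0.011; 0.072 without TTF clone 2) and Bnip3 at -0.88 ± 0.20 (adjusted p = 0.017; 0.052 without clone 1 and 0.1 without clone 2). These means join unlike gaps. Aldoc was at -2.03 ± 0.24 against granulocyte lines (adjusted p = 1e-04) and, not called, at -0.42 against B cell and -0.52 against T cell lines. Bnip3 was at -1.66 ± 0.25 against granulocyte lines (0.00036) and, not called, at -0.50 and -0.49 against the others. Lin28a (0.04 ± 0.09, adjusted p = 0.83), Dnmt3l (0.07 ± 0.06, 0.51), Rhox5 (0.05 ± 0.12, 0.83) and Tktl1 (0.19 ± 0.08, 0.14) were near 0. Targets of p53 were lower in 9 of 22 (3 without TTF clone 1, 2 without clone 2) where they had been higher at passage 4, with 19 lower against granulocyte lines and 0 called against the others. Fibroblast genes were higher in 28 of 37 (20 to 25 with any 1 TTF clone left out), with 28 against granulocyte (15.6% of all genes were higher), 1 against B cell and 1 against T cell lines (0.0484% and 0.0726%). Meg3 was at 0.82 ± 0.11 (adjusted p = 0.0021) and Rian at 0.81 ± 0.13 (adjusted p = 0.0039), on the same side as at passage 4.

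**Figure D4:**
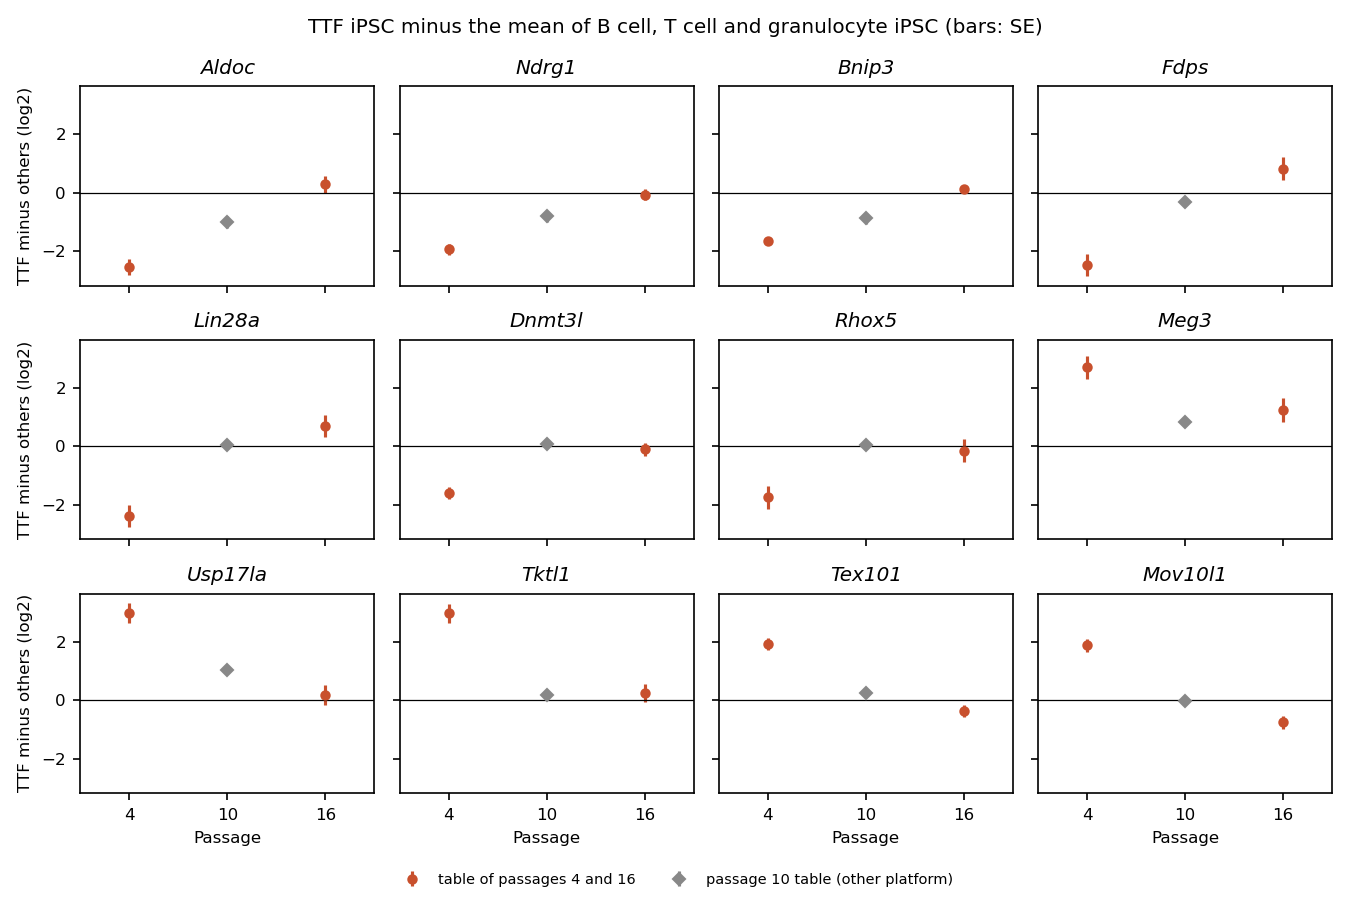
TTF lines minus the mean of the other 3 origins of mouse 2 in log2 units at passages 4, 10 and 16 for 12 genes, bars giving standard errors, passage 10 in grey because it comes from another platform. Aldoc stands at -2.54 at passage 4 and 0.28 at passage 16, and Lin28a at -2.38 and 0.69, while the passage 10 value averages a gap to granulocyte lines with smaller ones to B cell and T cell lines for genes such as Aldoc.

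The plot of gaps shows genes below 0 at passage 4, such as Aldoc, Fdps and Lin28a, and genes above it, such as Tktl1 and Meg3. Their gaps to the mean of the other origins were all nearer to 0 at passage 16, while that of Meg3 to T cell lines alone was not. For Ndrg1 and Meg3 the passage 10 value comes from another probe set than the other passages. Levels at passage 10 cannot be compared with those of the other passages, since the tables were normalized separately and the platforms differ. The gap within each table is what the plot sets side by side.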

How the data were processed

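The values were log2 expression values deposited by the authors, made with RMA per the submitters' processing notes, whose version and settings are not given in the sources used here. RMA corrects background, normalizes and summarises probes within each of 2 tables, so that levels were not compared between passage 10 and the other passages. Of 22690 probe sets in the table of 33 arrays, 18003 had 1 gene symbol in GEO's platform annotation, 287 several and 4400 none, and only the first were used. Each gene was read from its brightest probe set. Values ran from 2.26 to 14.08, and 0 columns of values went unused.

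limma 3.58.1 in R 4.3.3 fitted 1 mean per group over all 33 arrays, with moderated tests, two-sided, and Benjamini-Hochberg adjustment over all 11807 genes. The passage 10 table was fitted alone. The fit was tested on simulated data. Named genes were the 15 largest rises and 15 largest falls among called genes without overlap, up to 4 called members per list, 16 fixed genes and the 5 largest differences from the other origins in each direction, with exceptions stated where they occur. The genes, lists and comparisons were chosen with earlier results of these data known. Clone numbers did not pair the passages: same-numbered clones had deviations correlated at -0.077, -0.317 and -0.223. Alternatives were array weights, a mean-variance trend, quantile and cyclic loess normalization, a filter on dim genes, averaged probe sets, a block for clone number, a covariate for the mean of the fibroblast list, the TTF arrays alone and each array left out. Figures and tables were made with Python 3.11.15, pandas 2.3.3 and matplotlib 3.10.9.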

Additional observations from a re-analysis of the deposited data

Results flagged for a closer look

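The passage change of TTF lines and that of the other origins of mouse 2 differed in a test of the difference itself for 1528 genes in limma, and the 5 largest in each direction are listed here with their values. Upward, the differences from the mean change of B cell, T cell and granulocyte lines were 4.10 for Snurf, 3.30 for Fdps, 3.08 for Lin28a, 2.99 for Lox and 2.82 for Aldoc on the log2 scale. Downward they were -3.21 for Matn1, -2.81 for Usp17la, -2.78 for 1300017J02Rik, -2.76 for Casp14 and -2.72 for Tktl1. These calls held in the alternatives that tested the genes, while 1300017J02Rik, Casp14 and Tktl1 were not tested with the genes of a mean under 6 left out. For Usp17la the T cell lines moved the other way from the TTF lines, at 3.46 against -1.97, and for Snurf the B cell and granulocyte lines were both at -2.92 against 1.64.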

How the results depend on the processing

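The 1439 calls of the passage change became 557 with the 6 TTF arrays alone, 448 with the mean of the fibroblast list as covariate and 849 to 1443 with 1 TTF array left out. The 1528 calls of the difference from the other origins became 856 with the 24 arrays of mouse 2, 935 with the covariate and 675 to 1656 with 1 TTF array left out. The 2306 calls at passage 4 ranged from 1108 to 2297, and the 0 calls at passage 16 stayed 0 with 1 array left out and became 4 with array weights. The 1705 calls at passage 10 ranged from 300 to 1289, in fits chosen after seeing the data. Without clone 3 of the granulocyte lines at passage 16, the change, the difference and the passage 4 gap had 2157, 2077 and 3342 calls. Of the list members, 161 were called, 80 with the 6 arrays, 67 with the covariate and 110 to 153 with 1 array left out. Of the 123 named genes 112 were called, 62 with the 6 arrays, 58 with the covariate and 82 to 100 with 1 array left out. The 6-array fit has fewer residual degrees of freedom and takes its errors from the TTF clones alone. Its errors were larger for some genes (Rhox5, 0.80 against 0.48) and smaller for others (Slc7a3, 0.28 against 0.31). The cause of its fewer calls and of the other shifts was not tested. A replicate block for clone number gave 1443 and 1536 calls for the change and the difference, with a correlation of 0.002, and changed no call of a named gene. No called named gene turned direction in these fits. Turns among named genes that were not called, such as Xist with a change of -0.07, were not counted. Of the 112 called named genes, 54 lost their call with the covariate, 51 with the 6 arrays and 13 to 30 without any 1 TTF array, 30 of them without clone 2 of passage 4. Signal near the floor limits genes such as Lum and Fap.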

Other observations

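By chromosome, the median change of genes with a mean above 7 ran from -0.20 on chromosome 19 to 0.17 on chromosome 18. In clone 2 of passage 4 the medians of chromosomes 3, 13 and 18 lay at -0.26, -0.25 and -0.21 from the mean of the TTF arrays. Eif2s3y, a translation factor subunit gene of the Y chromosome, was at 10.40, 9.93 and 11.03 in the passage 4 clones and at 6.77, 9.27 and 9.20 at passage 16, with clone 1 of passage 16 lowest, and the change was not called (-2.04 ± 1.37, limma adjusted p = 0.41). Xist, through which female cells silence one X chromosome, was at 6.64, 6.53 and 6.60 and then at 7.18, 6.17 and 6.22.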
